A study of Mus musculus with 8 samples.

Results

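Mitosis and chromosome segregation genes were followed over 4 groups of sorted mouse bone marrow progenitors, wild type (WT) or Nfil3 knockout (KO). The set held 44 genes, listed by their known role in mitosis with earlier results of these data already known. A member was measured by a probe set (a group of array probes read as 1 value) annotated to that symbol only, and where a gene had several, by the one with the highest mean over the 8 arrays. Of the 44 genes, 42 had such a probe set, among 17097 genes in all. Ccnb1 and Nuf2 had no such probe set and enter only the promoter windows below. A gene was tested where 2 or more of its 8 values exceeded the middle value of the array (its median over probe sets), and 11583 genes met this. That left 41 members tested, 30 of which lay above the median on all 8 arrays. Ect2, a nucleotide exchange factor needed for cytokinesis, was the member left out, with log2 values from 2.33 to 3.58 over the 8 arrays.

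Nfil3 is a transcription factor needed for natural killer (NK) cells, and the series title gives its differential requirement along their development as the subject. All-lymphoid progenitors (ALP) are an early stage of the lymphoid lineages, and prepro NK cells (preproNK) are a later one toward NK cells. The 4 groups (ALP of either genotype, preproNK of either genotype) had 2 arrays each, and replicate 1 and replicate 2 mark different processing dates in the series design. All mice, controls included, carried the ID2-GFP reporter, in which green fluorescent protein marks cells that use the Id2 gene. Marrow was depleted of lineage-positive cells, sorted by flow cytometry and lysed with no culture, and the RNA was amplified before hybridisation. The sources used here do not give the age, sex or number of mice, the number of cells or the design of the knockout allele. The p-values therefore rest on the spread between arrays of a group alone, and that spread may hold both technical differences and differences between mice.

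Dividing cells make most mitotic proteins in a burst, from the end of DNA replication to the end of mitosis, and destroy many of them as division ends. Cyclins with Cdk1 start mitosis, Aurora and Polo kinases build the spindle, kinetochore proteins tie chromosomes to it, and the spindle checkpoint holds sister chromatids together until all are attached. Because resting cells make little of these messages, their level in a sorted population is commonly read as a sign of how many cells divide. In RNA of whole populations, fewer dividing cells and less of the message per dividing cell cannot be told apart.

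Many promoters of this class carry a cell cycle genes homology region (CHR), a short element bound by the DREAM and MuvB complexes, and CCAAT boxes bound by NF-Y. Promoter windows of 280 bases, from 250 bases before the start of a gene to 30 after it, were taken from RefSeq on GRCm38.p6 for 36 of the 44 members, 39 windows in all. They include windows of Ccnb1, Nuf2 and Ect2, which were not tested on the arrays. The letters TTTGAA or TTCGAA, on either strand, stood in 28 of the 39 windows, a share of 71.8% against 18.4% of all 32851 windows of that length. The letters CCAAT, on either strand, stood in 30 windows or 76.9%, against 36.1% of all windows. Both stood in 26 windows or 66.7%, against 6.92%. The 5 windows below were chosen for what follows: Cdk1, Ccnb2 and Top2a are among the members that differed between the KO preproNK arrays, Kif23 had the smallest adjusted p between populations, and Pttg1 went against the other members. Each is printed 5′ to 3′ on the strand of the gene, with the CHR letters and the CCAAT letters (CCAAT or ATTGG) in capitals.
Cdk1: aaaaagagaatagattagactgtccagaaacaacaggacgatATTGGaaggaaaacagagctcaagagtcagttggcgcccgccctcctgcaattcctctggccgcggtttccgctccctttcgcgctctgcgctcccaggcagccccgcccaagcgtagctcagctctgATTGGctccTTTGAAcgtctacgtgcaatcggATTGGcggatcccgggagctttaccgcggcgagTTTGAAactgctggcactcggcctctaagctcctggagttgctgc
Ccnb2: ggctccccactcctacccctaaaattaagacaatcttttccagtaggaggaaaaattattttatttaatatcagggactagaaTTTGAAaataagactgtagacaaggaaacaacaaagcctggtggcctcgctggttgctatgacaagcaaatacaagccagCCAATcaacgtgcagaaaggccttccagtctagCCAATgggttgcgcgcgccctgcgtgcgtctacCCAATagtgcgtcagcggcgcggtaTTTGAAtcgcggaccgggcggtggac
Top2a: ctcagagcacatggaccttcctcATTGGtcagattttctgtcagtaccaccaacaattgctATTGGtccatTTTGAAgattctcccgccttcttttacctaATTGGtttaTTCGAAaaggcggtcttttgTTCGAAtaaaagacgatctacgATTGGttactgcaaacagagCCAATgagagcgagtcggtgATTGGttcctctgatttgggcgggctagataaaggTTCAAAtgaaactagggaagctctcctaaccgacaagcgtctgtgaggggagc
Kif23: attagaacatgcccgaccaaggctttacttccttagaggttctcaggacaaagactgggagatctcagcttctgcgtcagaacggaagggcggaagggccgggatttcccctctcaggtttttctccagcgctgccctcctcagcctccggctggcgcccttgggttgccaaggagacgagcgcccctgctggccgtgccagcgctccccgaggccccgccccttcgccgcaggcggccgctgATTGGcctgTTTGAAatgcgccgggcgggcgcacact
Pttg1: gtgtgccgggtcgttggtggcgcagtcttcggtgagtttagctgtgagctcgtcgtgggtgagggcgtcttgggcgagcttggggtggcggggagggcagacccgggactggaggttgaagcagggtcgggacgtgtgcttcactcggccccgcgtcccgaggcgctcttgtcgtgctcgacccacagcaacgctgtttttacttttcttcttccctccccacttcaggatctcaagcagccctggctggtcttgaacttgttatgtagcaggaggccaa
These windows lie on the minus strand at chr10:69352883-69353162 (Cdk1), chr9:70421525-70421804 (Ccnb2), chr11:99024160-99024439 (Top2a), chr9:61946770-61947049 (Kif23) and chr11:43425952-43426231 (Pttg1). The first 4 hold both motifs, and the Pttg1 window holds neither. Nor do the windows of Birc5, Mad2l1, Ncaph, Ndc80 and Nusap1, tested members that did not share its course. On KO preproNK they were higher on replicate 2 than on replicate 1, by 1.21, 1.42, 0.54, 0.46 and 1.83 log2 units. Smc4, the other member not higher there by its chosen probe set, had no window. A match describes the letters and is not a binding site, and the arrays did not measure binding.

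The arrays differed in range. The SD over all probe sets was 1.39 on WT preproNK replicate 2 and 1.55 to 1.88 on the other 7, and only 310 genes reached a log2 value of 8 on that array, against 682 to 1498 elsewhere. On that array 43.6% of the tested genes lay below all 4 ALP arrays, against 19.1% on WT preproNK replicate 1, 21.5% on KO preproNK replicate 1 and 21.6% on KO preproNK replicate 2. Nfil3 read 6.89 and 5.50 in WT ALP, 3.41 and 4.15 in KO ALP, 4.75 and 4.74 in WT preproNK, and 3.84 and 3.57 in KO preproNK, lower in each KO pair, though whether its probes lie in the deleted part is not known here. The populations differed in markers: Flt3 read 8.10 to 9.14 in ALP and 3.79 to 4.47 in preproNK, and Il2rb read 3.78 to 4.68 in ALP and 5.76 to 8.91 in preproNK. NK and innate lymphoid markers were higher in preproNK by a median of 1.99 in WT and 3.64 in KO. T lineage markers were higher there too, by 0.92 and 3.12. Replicate number went with sex-linked genes: Xist read 3.10 to 3.56 on the replicate 1 arrays, 7.94 to 9.30 on 3 replicate 2 arrays and 4.20 on WT preproNK replicate 2. The Y-linked Eif2s3y read 6.60 to 7.04 on the replicate 1 arrays and 4.19 to 5.22 on the replicate 2 arrays. Kdm5d, also Y-linked, read 6.35 to 6.78 and 4.25 to 5.21. The part of this difference in the results was not tested.

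Mitosis genes read high on the 4 ALP arrays and on 1 of the 4 preproNK arrays, and lower on the other 3 preproNK arrays. The median over the 41 members was 7.06 and 6.28 on the WT ALP arrays (replicate 1, then replicate 2) and 7.36 and 6.62 on the KO ALP arrays. It was 5.50 and 5.42 on the WT preproNK arrays, and 5.67 and 6.99 on the KO preproNK arrays. Replicate 2 of KO preproNK thus read like ALP, and replicate 1 like WT preproNK.

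Because a narrow array compresses bright genes, each member was also set against genes of like mean level, the tested genes in the same bin when all were cut into 10 bins of equal size by their mean over the 8 arrays. The medians of those genes were 6.34 and 5.89 in WT ALP, 6.54 and 6.09 in KO ALP, 6.29 and 5.57 in WT preproNK, and 6.35 and 6.28 in KO preproNK. Members above their like-level median numbered 36 and 25 of 41 in WT ALP and 34 and 33 in KO ALP. In WT preproNK they numbered 1 and 13, and in KO preproNK 4 and 26. Among all tested genes on an array, the median member stood at percentile 77.3 and 72.2 in WT ALP, 78.6 and 75.3 in KO ALP, 49.3 and 53.6 in WT preproNK, and 51.7 and 75.4 in KO preproNK. Ranks within an array do not depend on its range, and they gave the same 5 high and 3 low arrays. WT preproNK replicate 2, however, also correlated less with every other array over the tested genes (r 0.504 to 0.747). With its own replicate r was 0.621, and pairs among the other arrays had 0.756 to 0.986. Ranks do not remove that difference.

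**Figure D1:**
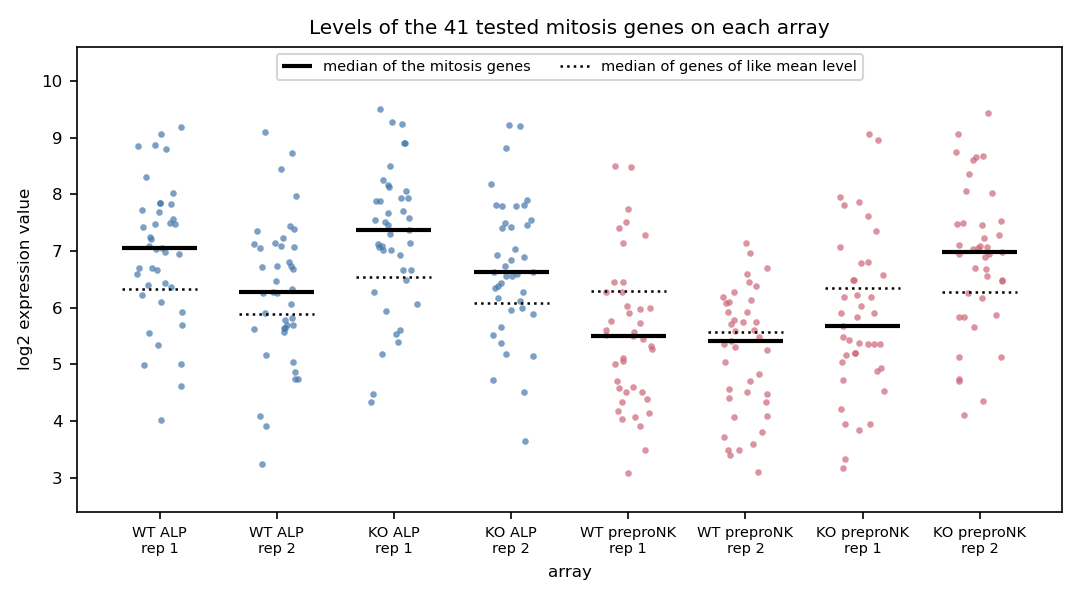
Log2 value of each of the 41 tested mitosis genes on each of the 8 arrays (1 point per gene, blue for ALP and red for preproNK), with the median of the members (solid line) and the median of genes of like mean level (dotted line). The member median is 6.28 to 7.36 on the ALP arrays, 5.42 to 5.67 on 3 preproNK arrays and 6.99 on KO preproNK replicate 2.

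Within KO preproNK, replicate 2 read higher than replicate 1, which was not so for the member medians of the other groups. The difference of replicate 2 less replicate 1 had a median over members of −0.74 in WT ALP, −0.68 in KO ALP and −0.10 in WT preproNK, but 1.05 in KO preproNK. Genes of like level had −0.44, −0.45, −0.75 and −0.04 in the same order. Less those, members stood lower on replicate 2 in both ALP groups (−0.33 and −0.24) and higher in both preproNK groups, by 0.54 in WT (30 of 41 above like level) and by 1.12 in KO (39 of 41). In KO preproNK 39 of 41 members were higher on replicate 2, against 48% of all tested genes, with a range from −0.32 to 2.37. The exceptions were Smc4 and Pttg1. For Smc4 this held only by the chosen probe set (9.07 on replicate 1 and 8.74 on replicate 2). Further probe sets of Smc4 read higher on replicate 2, with 7.14 then 8.05, and 6.52 then 7.34. Aurkb (2.37), Bub1 (1.96), Prc1 (1.88), Nusap1 (1.83) and Top2a (1.81) had the largest differences. With 1 array per date there is no test of this difference.

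**Figure D2:**
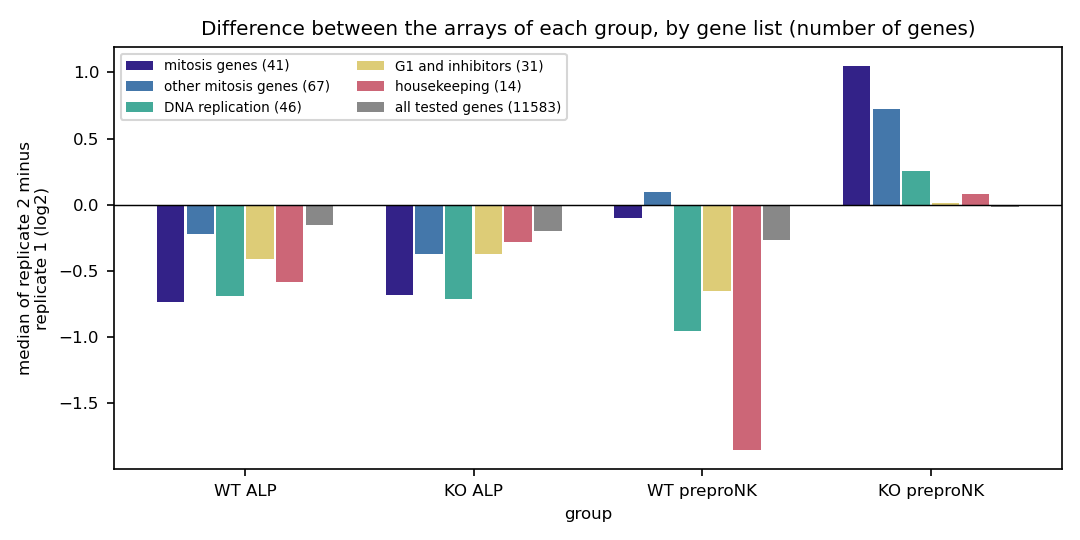
Replicate 2 less replicate 1 (log2) in each group as the median over the 41 mitosis genes, 4 comparison lists and all tested genes (1 bar per list). The member median is 1.05 in KO preproNK and lies between −0.74 and −0.10 in the other 3 groups.

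Every role took part in it: 8 of 8 mitotic entry genes, 3 of 3 passenger genes, 5 of 5 checkpoint genes, 3 of 4 anaphase genes, 5 of 5 kinetochore genes, 5 of 5 spindle motor genes, 5 of 5 central spindle genes and 5 of 6 condensin and chromosome genes were higher on replicate 2. Role medians ran from 0.66 (anaphase control) to 1.28 (spindle motors). Genes that are not members but act in mitosis had a median of 0.73 (58 of 67 higher), DNA replication genes 0.26 (32 of 46), G1 regulators 0.01 (17 of 31) and housekeeping genes 0.08 (11 of 14). Some marker lists moved with it as well. Dendritic cell markers had a median difference of 1.02, 7 of 8 tested markers being higher, and their summed log2 level over 9 markers was 46.5 and 55.3 in KO preproNK, against 52.2 and 50.1 in WT preproNK. Erythroid markers had 0.60, 8 of 10 being higher, with a summed level over 10 markers of 48.8 and 53.4, against 55.9 and 54.3 in WT preproNK. NK and innate lymphoid markers had −0.49, with 9 of 12 lower, and T lineage markers −0.43, with 11 of 13 lower. The number of dendritic markers above the array median was 6 of 9 and 8 of 9, and of erythroid markers 5 of 10 and 10 of 10. Their part in the result was not tested.

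**Figure D3:**
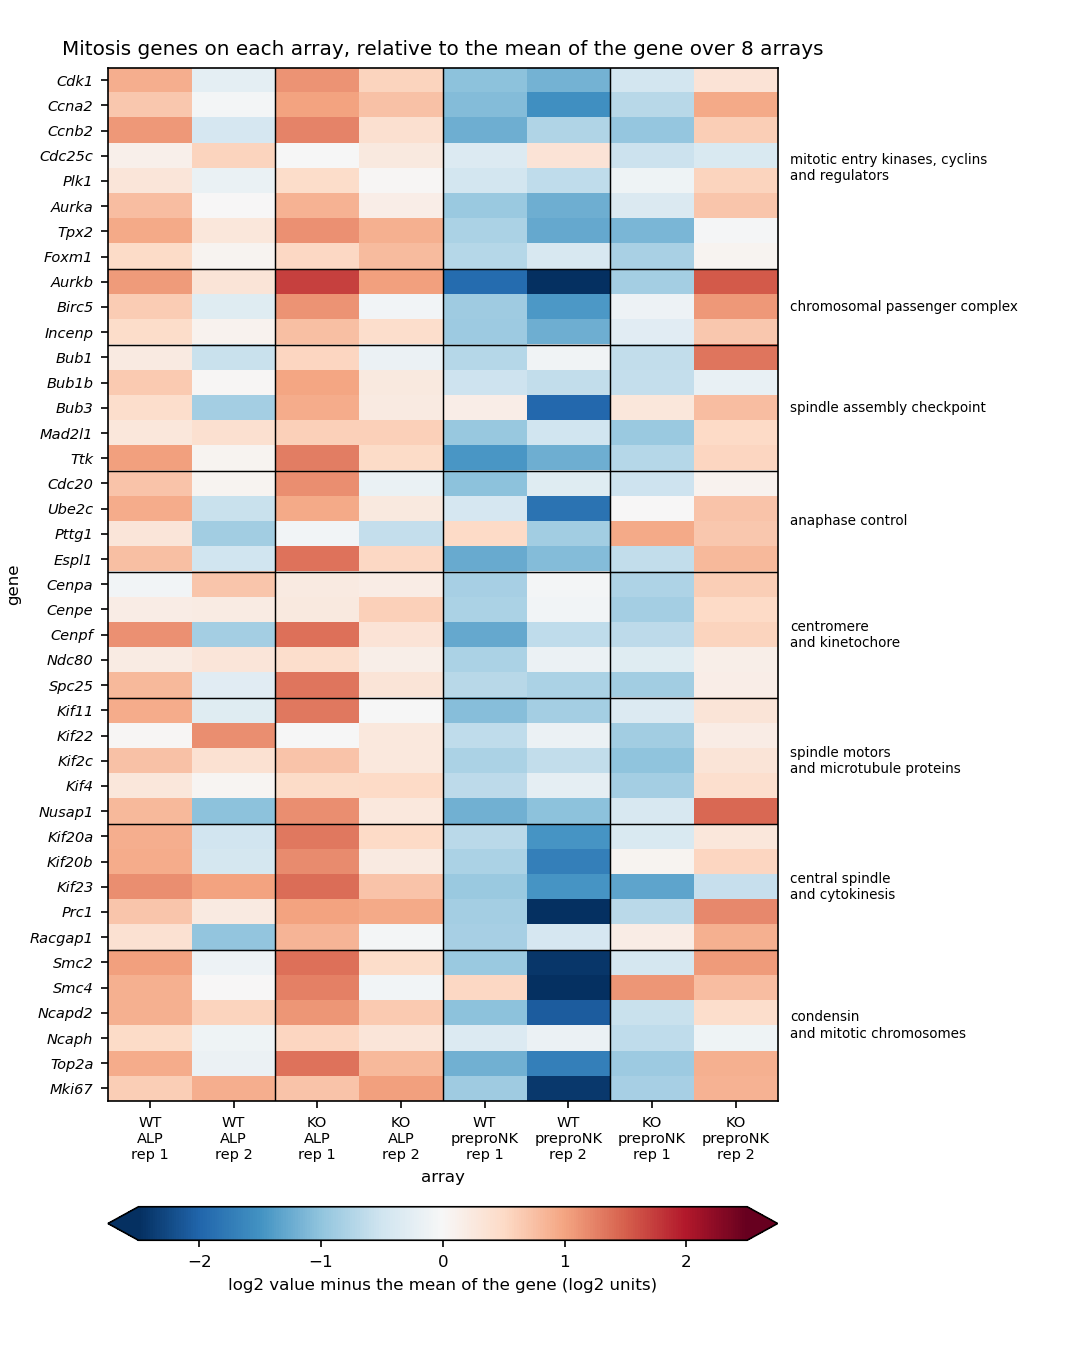
Each row is a mitosis gene, each column an array, and colour is the log2 value less the mean of that gene over the 8 arrays, ordered by role. Most rows are blue on both WT preproNK arrays and on KO preproNK replicate 1, and red on KO preproNK replicate 2, where 39 of 41 genes are higher than on replicate 1.

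The members follow by role, with replicate 1 before replicate 2. Levels are log2 values of a probe set and are not compared between genes. Among regulators of mitotic entry, Cdk1, the kinase that drives it, read 7.85 and 6.68 in WT ALP, 8.05 and 7.49 in KO ALP, 5.91 and 5.75 in WT preproNK, and 6.48 and 7.29 in KO preproNK. Its WT preproNK arrays were the lowest of the 8, and KO preproNK replicate 2 lay among the ALP arrays. Ccna2, the cyclin of S phase and early mitosis, read 9.18 and 8.45 in WT ALP, 9.50 and 9.22 in KO ALP, 7.41 and 6.97 in WT preproNK, and 7.82 and 9.44 in KO preproNK. KO preproNK replicate 2 exceeded both WT ALP arrays. Aurka, the kinase that matures centrosomes, read 7.03 and 6.26 in WT ALP, 7.12 and 6.43 in KO ALP, 5.33 and 5.04 in WT preproNK, and 5.91 and 6.96 in KO preproNK. The preproNK genotypes did not overlap for these 3 genes.

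Tpx2, which activates Aurka on the spindle, read 7.47 and 6.80 in WT ALP, 7.67 and 7.41 in KO ALP, 5.73 and 5.25 in WT preproNK, and 5.37 and 6.49 in KO preproNK. All 4 preproNK arrays lay below all 4 ALP arrays, and the preproNK genotypes overlapped. For Foxm1, a transcription factor that drives mitotic genes, the values were 7.48 and 7.06 in WT ALP, 7.51 and 7.79 in KO ALP, 6.28 and 6.59 in WT preproNK, and 6.18 and 7.07 in KO preproNK. Populations did not overlap within either genotype. For Cdc25c, a phosphatase that activates Cdk1, they were 4.62 and 5.04 in WT ALP, 4.47 and 4.73 in KO ALP, 4.15 and 4.83 in WT preproNK, and 3.94 and 4.10 in KO preproNK. It was the only member with both KO preproNK arrays below both WT preproNK arrays. The remaining genes of this role, Ccnb2 and Plk1, ranged from 5.11 to 7.58 and from 6.27 to 7.47.

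The chromosomal passenger complex corrects faulty attachments and acts again in cytokinesis. Aurkb, its kinase, read 7.06 and 6.32 in WT ALP, 7.71 and 7.03 in KO ALP, 4.08 and 3.10 in WT preproNK, and 5.16 and 7.53 in KO preproNK. The WT preproNK arrays were far below the other 6, and the value of 3.10 lay below the middle value of that array (4.26). Birc5 (survivin) read 6.59 and 5.65 in WT ALP, 7.07 and 5.89 in KO ALP, 5.07 and 4.52 in WT preproNK, and 5.83 and 7.04 in KO preproNK. Incenp, the scaffold, read 7.83 and 7.44 in WT ALP, 8.12 and 7.81 in KO ALP, 6.46 and 6.14 in WT preproNK, and 7.08 and 8.03 in KO preproNK. For all 3 subunits WT preproNK lay below every other array, and KO preproNK replicate 2 read as high as ALP.

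In the spindle assembly checkpoint, Bub3 read 8.02 and 6.72 in WT ALP, 8.50 and 7.80 in KO ALP, 7.75 and 5.61 in WT preproNK, and 7.87 and 8.36 in KO preproNK. Its lowest value was on WT preproNK replicate 2, and the populations overlapped in both genotypes. Bub1b, the BubR1 kinase, read 6.69 and 6.07 in WT ALP, 7.01 and 6.28 in KO ALP, 5.51 and 5.42 in WT preproNK, and 5.43 and 5.84 in KO preproNK. All preproNK arrays lay below all ALP arrays, in both genotypes. Bub1, a kinase of the same pathway, read 4.02 and 3.25 in WT ALP, 4.34 and 3.65 in KO ALP, 3.08 and 3.72 in WT preproNK, and 3.18 and 5.14 in KO preproNK. It passed the array median on 3 of 8 arrays, and KO preproNK replicate 2 was the highest. Mad2l1 ranged from 6.0 to 7.55 and Ttk from 4.17 to 6.92.

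Anaphase control held the member that differed most from the rest. Pttg1 (securin, which blocks separase until anaphase) read 8.31 and 7.15 in WT ALP, 7.94 and 7.42 in KO ALP, 8.50 and 7.14 in WT preproNK, and 8.96 and 8.68 in KO preproNK. Both KO preproNK arrays exceeded all other arrays, and WT preproNK overlapped WT ALP. Espl1 (separase itself) read 6.40 and 5.16 in WT ALP, 7.02 and 6.18 in KO ALP, 4.39 and 4.57 in WT preproNK, and 5.04 and 6.47 in KO preproNK. Its pattern was that of most members. The ubiquitin ligase activator Cdc20 ranged from 5.97 to 8.16, and the conjugating enzyme Ube2c from 6.10 to 8.90.

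At the centromere and kinetochore, Cenpa, the histone H3 variant of centromeres, read 6.37 and 7.13 in WT ALP, 6.66 and 6.62 in KO ALP, 5.61 and 6.39 in WT preproNK, and 5.67 and 7.06 in KO preproNK. In preproNK both genotypes read higher on replicate 2, and populations overlapped in each genotype. A second probe set of Cenpa differed in WT: it read 6.62 and 5.68 in ALP and 4.59 and 4.04 in preproNK, without overlap. Cenpf, a large kinetochore protein of G2 and mitosis, read 7.69 and 5.70 in WT ALP, 7.94 and 6.90 in KO ALP, 5.27 and 5.93 in WT preproNK, and 5.91 and 7.11 in KO preproNK, so that WT ALP replicate 2 lay among the preproNK arrays. Spc25, of the Ndc80 complex, read 5.01 and 3.90 in WT ALP, 5.54 and 4.50 in KO ALP, 3.49 and 3.40 in WT preproNK, and 3.33 and 4.36 in KO preproNK. Populations did not overlap for Spc25 in either genotype, but only 4 of its 8 values passed the array median. Cenpe ranged from 4.53 to 5.96 and Ndc80 from 4.71 to 5.95, the narrowest ranges of this role.

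Among spindle motors and microtubule proteins, Kif11 (Eg5, which pushes spindle poles apart) read 7.50 and 6.26 in WT ALP, 7.88 and 6.56 in KO ALP, 5.50 and 5.71 in WT preproNK, and 6.22 and 6.89 in KO preproNK. WT preproNK lay below the other 6 arrays. Kif2c, a microtubule depolymerase, read 7.09 and 6.74 in WT ALP, 7.08 and 6.63 in KO ALP, 5.58 and 5.74 in WT preproNK, and 5.35 and 6.69 in KO preproNK. Its ALP genotypes overlapped, and WT preproNK lay below all ALP arrays. Kif22, a chromosome-arm motor, read 6.11 and 7.24 in WT ALP, 6.07 and 6.34 in KO ALP, 5.45 and 5.93 in WT preproNK, and 5.20 and 6.26 in KO preproNK. Its highest value was on WT ALP replicate 2, the reverse of most members in that group. Nusap1, which bundles spindle microtubules, read 5.93 and 4.09 in WT ALP, 6.28 and 5.38 in KO ALP, 3.91 and 4.09 in WT preproNK, and 4.73 and 6.55 in KO preproNK. KO preproNK replicate 2 was the highest of the 8, and WT ALP replicate 2 read like WT preproNK. Kif4 ranged from 3.84 to 5.19.

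For the central spindle and cytokinesis, Kif23 (the motor of centralspindlin) read 6.44 and 6.28 in WT ALP, 6.67 and 5.99 in KO ALP, 4.34 and 3.80 in WT preproNK, and 3.96 and 4.71 in KO preproNK. All 4 preproNK arrays lay far below all 4 ALP arrays, and Kif23 thus separated the populations even on KO preproNK replicate 2. Its partner Racgap1 did not: it read 6.98 and 5.63 in WT ALP, 7.45 and 6.56 in KO ALP, 5.77 and 6.19 in WT preproNK, and 6.79 and 7.49 in KO preproNK. Both KO preproNK arrays of Racgap1 exceeded both WT preproNK arrays. Kif20a, a motor that relocates the passenger complex, read 7.85 and 6.48 in WT ALP, 8.26 and 7.45 in KO ALP, 6.27 and 5.48 in WT preproNK, and 6.57 and 7.23 in KO preproNK. The microtubule bundler Prc1 ranged from 4.34 (WT preproNK replicate 2) to 8.07 (KO preproNK replicate 2), and Kif20b from 3.59 to 6.48.

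Of condensin and mitotic chromosome genes, Ncapd2, a condensin I subunit, read 9.06 and 8.73 in WT ALP, 9.28 and 8.82 in KO ALP, 7.14 and 6.09 in WT preproNK, and 7.62 and 8.60 in KO preproNK. Top2a, the topoisomerase that untangles sister chromatids, read 6.71 and 5.64 in WT ALP, 7.14 and 6.59 in KO ALP, 4.59 and 4.07 in WT preproNK, and 4.88 and 6.68 in KO preproNK. In both genes WT preproNK was lowest. Mki67, the antigen of the Ki-67 proliferation stain, read 8.79 and 9.10 in WT ALP, 8.91 and 9.21 in KO ALP, 7.29 and 5.78 in WT preproNK, and 7.35 and 9.06 in KO preproNK. The replicate 1 values of both preproNK genotypes were nearly equal. Smc4, a condensin ATPase, read 8.85 and 7.97 in WT ALP, 9.24 and 7.90 in KO ALP, 8.49 and 3.48 in WT preproNK, and 9.07 and 8.74 in KO preproNK, so that 1 array, WT preproNK replicate 2, carried its low value. Ncaph, the kleisin of condensin I, read 5.34 and 4.74 in WT ALP, 5.39 and 5.15 in KO ALP, 4.51 and 4.71 in WT preproNK, and 4.21 and 4.75 in KO preproNK. Its range was small. Smc2 ranged from 3.48 to 7.30.

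Between the WT populations, 40 of 41 members had lower values in preproNK, with a median difference of −1.27, against −0.05 over all tested genes. The exception was Pttg1 (0.09, SE 0.58). The difference was −1.52 within replicate 1 and −0.93 within replicate 2. Less genes of like level it was −1.51 and −0.45, so that more of the replicate 2 difference was shared with other genes of that level. The role medians ran from −0.75 (kinetochore) to −2.20 (condensin and chromosomes). Both preproNK arrays lay below both ALP arrays for 31 of 41 members, against 14.9% of tested genes. WT preproNK replicate 1 alone lay below all 4 ALP arrays for 36 of 41, against 19.1% of tested genes. Replicate 2 alone did so for 35 of 41, against 43.6%.

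No member passed limma's adjusted threshold of 0.05 in this comparison, where 0.095% of tested genes did, and 15 had an unadjusted p under 0.05 for a lower value, against 4.64% of tested genes. Kif23 (−2.29, SE 0.44) had the smallest adjusted p by limma, 0.148. Ncapd2 followed with −2.28 (SE 0.51) and an adjusted p by limma of 0.232, Aurkb with −3.10 (SE 0.77) and 0.267, and Mki67 with −2.41 (SE 0.67) and 0.335. These p-values came from 4 residual degrees of freedom. The median was −0.78 without WT ALP replicate 1. Without WT preproNK replicate 1, 5 members passed (Kif23, Mki67, Ncapd2, Prc1 and Smc4), all against the narrow array alone, as did 7.11% of tested genes.

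In KO, 37 of 41 members had lower values in preproNK than in ALP, with a median difference of −0.71, against −0.00 over all tested genes. The replicates differed: the median was −1.56 within replicate 1, where 40 of 41 were lower, and 0.21 within replicate 2, where 26 of 41 were higher. Less genes of like level the medians were −1.45 and 0.01. KO preproNK replicate 1 lay below all 4 ALP arrays for 30 of 41 members and replicate 2 for 5, against 21.5% and 21.6% of tested genes. The groups did not overlap for 12 members lower in preproNK, against 20.6% of tested genes, and for Pttg1, which was higher.

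No member passed limma's threshold here either, where 1.75% of tested genes did, and 4 had an unadjusted p under 0.05 for a lower value (Kif23, Tpx2, Foxm1 and Bub1b), against 4.51% of tested genes. Kif23 differed by −2.0 (SE 0.44, adjusted p by limma 0.080) and Tpx2 by −1.61 (SE 0.48, adjusted p by limma 0.212). Foxm1 differed by −1.02 (SE 0.42) and Bub1b by −1.01 (SE 0.42). Pttg1 was higher by 1.14 (SE 0.58, adjusted p by limma 0.636), with 1.02 and 1.26 within the replicates. With the replicate number as a block, which the dates make a pairing, Kif23 passed (adjusted p by limma 0.0378), as did 3.88% of tested genes. It also passed without either WT preproNK array (0.0310), where 4.58% of tested genes did, so that 1 of 41 members is a smaller share. Without KO preproNK replicate 1 the median over members was −0.10, and without replicate 2 it was −1.26.

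**Figure D4:**
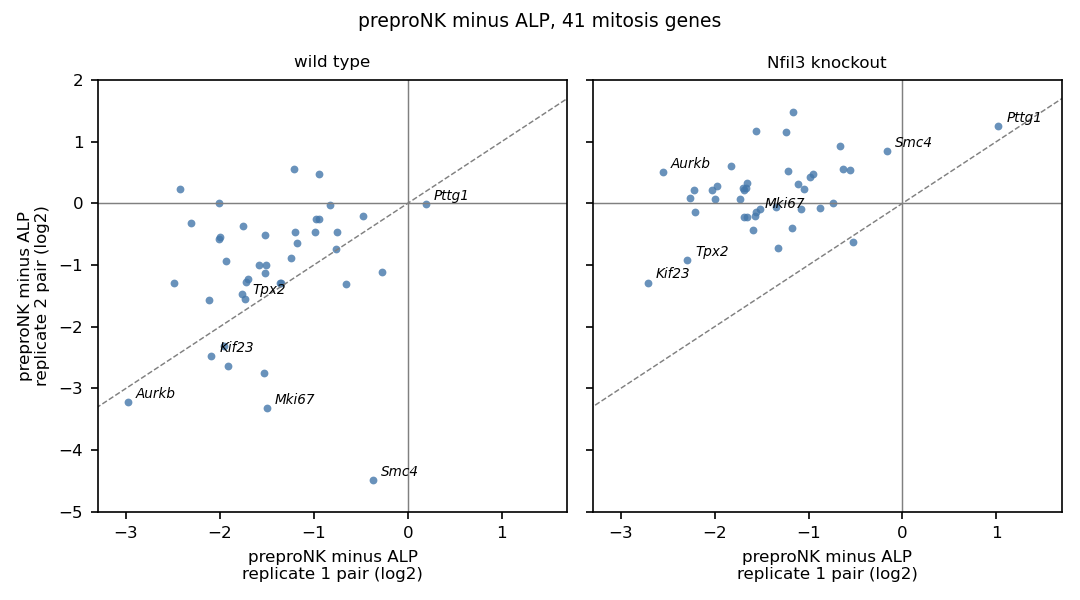
PreproNK less ALP (log2) within replicate 1 (horizontal axis) and within replicate 2 (vertical axis), for WT and for KO, 1 point per mitosis gene with some named and a dashed line where both are equal. WT points lie mostly below 0 on both axes (medians −1.52 and −0.93), and 40 of 41 KO points lie left of 0 but around 0 on the vertical axis (medians −1.56 and 0.21).

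Between genotypes in preproNK, 39 of 41 members had higher values in KO, with a median difference of 1.00, against 0.15 over all tested genes. Within replicate 1 the median was 0.36 with 30 members higher, and within replicate 2, where the narrow WT array met the KO array of high mitotic level, it was 1.42 with 40 higher. Less genes of like level these were 0.27 and 0.64, and that over both replicates was 0.49, or 0.37 with like level taken from the ALP arrays. The passenger complex (median 1.64) and the condensin and chromosome genes (1.58) stood highest among the roles, also less genes of like level (1.26 and 1.03). Within replicate 1 the passenger complex stayed highest (0.76), but the condensin and chromosome genes (0.38) lay below anaphase control (0.49). Within replicate 2, with the narrow WT array, these roles had 2.52, 2.95 and 1.72 in the same order. The lowest raw medians were those of the spindle motors (0.36) and kinetochore genes (0.40), and less genes of like level the mitotic entry genes were lowest (0.24). The role medians rest on the chosen probe sets. Second probe sets gave 1.88 against 0.37 for Cenpa, 1.26 against 0.25 for Cenpe and 0.32 against 0.91 for Cenpf. Among the motors they gave 2.70 against 0.95 for Kif11 and 0.44 against 0.04 for Kif22. In mitotic entry, further probe sets of Foxm1 gave 1.07 and 1.46 against 0.19, so the place of that role as lowest depends on the probe set. Both KO arrays exceeded both WT arrays for 23 of 41 members, against 22.7% of tested genes. Housekeeping genes also read higher in KO, 14 of 14 with a median of 0.79, but at −0.08 less genes of like level.

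No member passed limma's threshold, nor did any tested gene (0%, or 10 genes and no member with the replicate block), and 10 had an unadjusted p under 0.05 for a higher value, against 4.51% of tested genes. Aurkb was higher by 2.76 (SE 0.77, adjusted p by limma 0.613), with 1.08 within replicate 1 and 4.43 within replicate 2. Ncapd2 was higher by 1.49 (SE 0.51), Incenp by 1.25 (SE 0.43) and Birc5 by 1.64 (SE 0.60). Each of these 3 was positive within both replicates: 0.48 and 2.51 for Ncapd2, 0.62 and 1.89 for Incenp, and 0.76 and 2.52 for Birc5. Cdc25c was lower by 0.47 (SE 0.39) and Ncaph by 0.13 (SE 0.39). NK and innate lymphoid markers were also higher in KO preproNK, with summed log2 levels over 12 markers of 93.1 and 90.2 against 81.5 and 65.9 in WT, as were T lineage markers with 105.5 and 100.4 against 87.4 and 75.5 over 13, and their part in the result was not tested.

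The size of this difference varied with the arrays used. Without KO preproNK replicate 2 the median was 0.56 with 27 of 41 members higher, without KO preproNK replicate 1 it was 1.51 with 40 higher, and without WT preproNK replicate 2 it was 0.82 with 38 higher. Without WT preproNK replicate 1, which leaves the narrow array alone in its group, 7 of 41 members passed (Aurkb, Bub3, Mki67, Ncapd2, Prc1, Smc2 and Smc4), but so did 21.9% of all tested genes, a larger share. After repeated quantile normalization 33 of 41 were higher.

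In ALP the genotypes lay close together. KO values were higher for 35 of 41 members, with a median difference of 0.34, against 0.06 over all tested genes, and medians of 0.26 within replicate 1 and 0.41 within replicate 2. Less genes of like level these were 0.13 and 0.43. Housekeeping genes had the same median, 0.34, and less genes of like level they had 0.07 where the members had 0.21. No member passed limma's threshold and none had an unadjusted p under 0.05, against 0% and 0.0345% (for higher values) of tested genes. Both KO arrays exceeded both WT arrays for 6 of 41 members, against 8.68% of tested genes. Espl1 (0.82, SE 0.62), Racgap1 (0.70, SE 0.56), Kif20a (0.69, SE 0.58) and Nusap1 (0.82, SE 0.77) had the smallest unadjusted p among those higher in KO, and Kif22 (−0.46, SE 0.53) among those lower. Without WT ALP replicate 2, whose mitosis genes read lowest among ALP, the median was −0.02 and 19 of 41 members were higher, and without KO ALP replicate 1 it was 0.06.

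**Figure D5:**
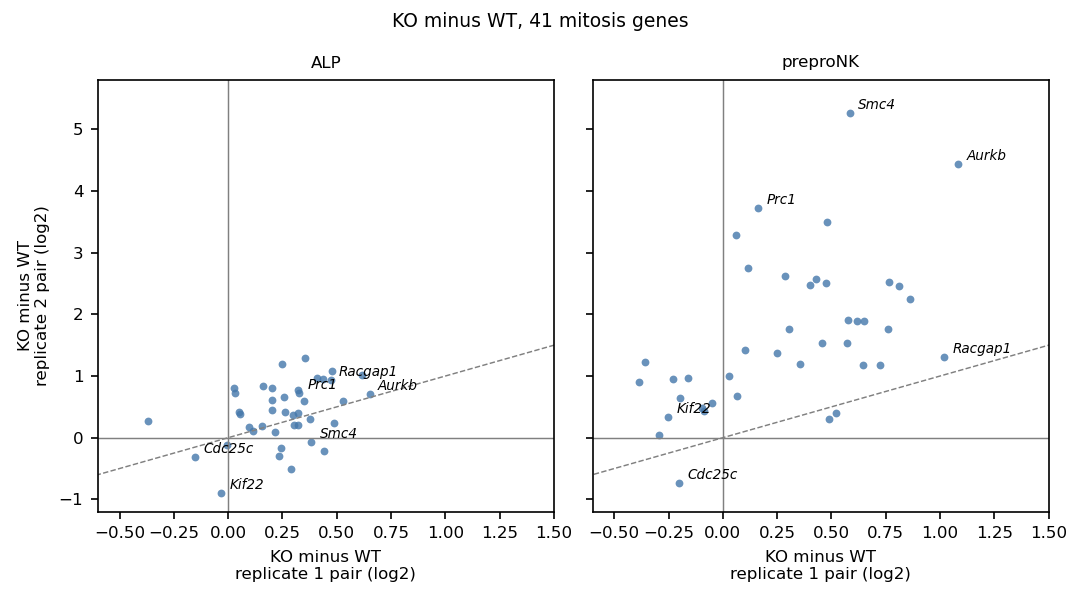
KO less WT (log2) within replicate 1 (horizontal axis) and within replicate 2 (vertical axis), for ALP and for preproNK, 1 point per mitosis gene with some named and a dashed line where both are equal. In ALP the points cluster near 0 (medians 0.26 and 0.41), and in preproNK they spread upward on the replicate 2 axis (medians 0.36 and 1.42).

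Whether the knockout difference varied between populations was tested by the interaction, preproNK less ALP. Its median over members was 0.50, with 35 of 41 above 0, against 0.08 over all tested genes. No member passed limma's threshold (0% of tested genes did), and 0 members had an unadjusted p under 0.05 for a higher value, against 1.45% of tested genes. Aurkb had the smallest unadjusted p of the members, with 2.08 (SE 1.09), and Mki67 had 1.56 (SE 0.95). Smc4 had a larger value with a wider error, 2.77 (SE 1.94). The median was 0.08 within replicate 1 and 1.07 within replicate 2, and 0.05 without KO preproNK replicate 2. All 5 comparisons use the same 8 arrays and are not independent of each other.

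Other cell cycle genes gave a wider frame. Mitosis genes outside the set had medians of −0.79 between the WT populations and −0.55 between the KO populations, and 0.42 for KO less WT in preproNK and 0.19 in ALP, with 0 of 67 called in any of them. DNA replication genes had −1.36, −0.79, 0.64 and 0.33, with 0 of 46 called. G1 regulators had −0.39, −0.02, 0.68 and 0.19, and of these 31 genes Cdk6, a partner of D cyclins, fell from ALP to preproNK in KO (−2.55, SE 0.45, adjusted p by limma 0.0386). On the KO preproNK arrays the median of the replication genes was 6.19 on replicate 1 and 6.29 on replicate 2, below the 7.70 and 6.92 of KO ALP on both dates. Windows with the CHR letters made up 53.4% for the other mitosis genes and 21.2% for replication genes.

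Second probe sets were read as a check of the choice of probe set. Of the 42 members, 23 had several probe sets, 77 in all, and 26 further probe sets of 20 genes were above the array median on enough arrays. Their difference had the same sign as that of the chosen probe set in 25 of 26 between the WT populations, 24 between the KO populations, 23 for genotype in preproNK and 21 for genotype in ALP. The medians of these further probe sets were −1.17, −0.57, 1.09 and 0.35. Probe sets of 1 gene share its transcripts and are not independent.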

How the data were processed

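Expression was measured in 4 groups of 2 arrays. The deposited values are log2 expression levels of probe sets. The authors used RMA and Partek to make them, per the submitters' processing notes, and the sources used here do not give settings or versions. Of 45141 probe sets, 28898 were annotated to 1 symbol. The values have no detection calls or depth, so the number of arrays limits precision.

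A linear model with a mean for each group was fitted to all arrays (lmFit and eBayes of limma 3.58.1 in R 4.3.3), leaving 4 residual degrees of freedom, with two-sided p-values adjusted by Benjamini and Hochberg over the 11583 genes tested. It was checked on simulated data in which each gene varied alike on all arrays, with no shared date effect. The arrays here differ in spread, with array weights of 0.314 in WT preproNK and 2.727 in KO preproNK, so the check does not cover them. Values on all arrays are printed for the brightest tested member of each role, the members with the smallest unadjusted p in each comparison (up to 4 each way), and Mki67, Top2a, Cdk1, Aurkb and Foxm1. The members and lists were chosen with earlier results of these data known.

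Replicate number marks the date in the series design and so pairs the arrays. Deviations of replicate 1 from the group mean correlated across genes at r 0.149 to 0.205 between KO preproNK and each other group, and at 0.608 to 0.807 among those 3 groups. Alternatives were the replicate block, filters, 2 scalings, like-level differences, probe set means, another variance prior, array weights and leaving out each array.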

Additional observations from a re-analysis of the deposited data

How the results depend on the processing

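The direction of the medians over members held in all alternatives except 1: without WT ALP replicate 2 the KO less WT median in ALP was −0.023. Over single arrays left out, that median ranged from −0.023 to 0.74, and it was 0.16 after repeated quantile normalization and 0.21 against genes of like level. Leaving out single arrays moved the WT population difference from −1.84 to −0.78. With the replicate number as a block, 1 member was called between the KO populations (Kif23), as with array weights, and with the block and without WT preproNK replicate 2 there were 3 (Kif23, Pttg1 and Tpx2) and 1 between the WT populations (Kif23). The block changed no other call of a member. Over all tested genes it moved the calls from 0 to 10 for genotype in preproNK, from 11 to 67 between the WT populations and from 203 to 449 (3.88%) between the KO populations. The share of tested genes called was 7.79% with array weights between the KO populations, and 10.7% and 3.72% between the KO and the WT populations with the block and without WT preproNK replicate 2, with no larger share of members. Counts of called members over single arrays left out were 0 to 7 for genotype in preproNK, 0 to 5 between the WT populations and 0 to 1 between the KO populations, where up to 21.9%, 7.11% and 4.58% of tested genes were called. For Nusap1, the genotype difference in ALP ranged from −0.10 (without WT ALP replicate 2) to 1.74 over single arrays left out. A group left with 1 array is assumed to vary like the others. Of the other values, 163 for the set moved by less than the spread between replicates or gave a count within 1.5 times, and 16 did not. That spread is widest where the replicates disagree most, so the 163 do not measure stability. Between the KO populations, moves of the median from −0.71 to −0.10 and to −1.26 lay within it. For single genes, 327 values kept their direction and side of the threshold, though some moved far. Without WT ALP replicate 2 the genotype difference in ALP was 0.02 for Racgap1 and 0.20 for Espl1. An alternative that took the like level from the 4 arrays outside a comparison was added after seeing the data.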
